A study of Mus musculus with 12 samples.

Results

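The genes described here are 37 genes of fatty acid activation and beta-oxidation, chosen by name from the 15767 genes measured in a mouse cell line. They cover uptake and activation, the carnitine shuttle, the mitochondrial spiral, electron transfer, the enzymes for unsaturated chains, peroxisomal oxidation, and 3 genes that control the supply of fatty acids or the gate into mitochondria. All 37 were found in the deposited tables by gene symbol and all passed the filter on low counts. RNA was sequenced from Neuro-2a, an established mouse neuroblastoma line used as a neuron-like model, labelled as wild type. The 12 libraries form 3 groups of 4, numbered 1 to 4 in each: cells transfected with a control small RNA, with a mimic of miR-155, intended to raise its activity, or with an inhibitor intended to lower it. All groups were transfected without serum or antibiotics, were returned to growth medium after 4 h and were kept in culture to day 2. The series title asks about miR-155, PPARγ, PGC-1α, ERRα and mitochondrial damage in neuronal cells, and the labels name no hypoxic group. The level of miR-155 was not analysed here, so whether each reagent acted cannot be read from these values.

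Fatty acids become usable as fuel when a synthetase joins them to coenzyme A. Carnitine palmitoyltransferase 1 on the outer mitochondrial membrane then passes the acyl chain to carnitine, a translocase carries it across the inner membrane, and carnitine palmitoyltransferase 2 restores the acyl-CoA. Malonyl-CoA, the building block of fatty acid synthesis, inhibits carnitine palmitoyltransferase 1 and so sets the gate between synthesis and oxidation. Inside the mitochondrion each turn of the spiral dehydrogenates, hydrates, dehydrogenates again and cleaves the chain, and electrons from the first step pass through the electron transfer flavoprotein to the respiratory chain. PPAR and ERR nuclear receptors with the coactivator PGC-1α are textbook activators of these genes, and neurons are known for low use of fatty acids as fuel.

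The microRNA and its candidate sites among these genes are shown first, because a site match is the most direct link from the reagents to a member. The mature mouse miR-155-5p is given as RefSeq lists it with GRCm38.p6, at chr16:84714143-84714165 on the plus strand, with the seed (bases 2 to 8) in capitals. The sites are from the longest annotated 3' UTR in GENCODE M21 on GRCm38, with the bases that match in capitals.
mmu-miR-155-5p: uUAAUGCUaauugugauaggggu
Mlycd site, position 542 of a 581-base 3' UTR: ttgttctgtaAGCATTAAacatgattgt
Acox3 site, position 1124 of a 1667-base 3' UTR: gtagaatgctGCATTAAgatacgtcac
The Mlycd site is an 8mer match (AGCATTAA), the Acox3 site a 7mer-A1 match (GCATTAA), and Hsd17b4 holds a 7mer-m8 match (AGCATTA) that is not printed. These 3 genes were the members with any of these matches, 8.11% of the 37, against 13.43% of the 15496 measured genes with an annotated 3' UTR. The members' 3' UTRs were also shorter, with a median of 602 bases against 1224 bases.

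Libraries held 60695388 to 74200532 counts, and 13014 genes passed the filter on low counts. Within a group the libraries with number 4 stood apart from numbers 1 to 3 across the transcriptome, as described below. The labels do not say what the number marks, nor whether libraries of a group are separate cultures, so p-values reflect only library-to-library spread, which may be technical. Of 12 neuroblastoma and neuronal markers 9 exceeded 1 TPM, among them Phox2a, Hand2, Tubb3 and Chga, while Nefl and Nefm were at or near 0. Summed markers were 6.13 to 9.90 TPM for fibroblasts, 3.43 to 4.95 TPM for glia and 1.79 to 3.04 TPM for immune and endothelial cells. The adipocyte and hepatocyte markers Adipoq, Lep and Apoa1 reached at most 0.237 TPM summed.

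Neuro-2a cells carried RNA for every step of the pathway. TPM, a length-scaled share of a library, divides a gene's count by a gene length fixed by the authors and scales each library to the same total, so levels between genes depend on that length. The 37 members summed to 2650 TPM, 0.265% of all TPM, and their median level was 49.8 TPM against 12.1 TPM over all genes. Of the members, 30 were above the median gene, 8 exceeded 100 TPM and 5 were under 10 TPM. The pathway's share of counts was nearly constant, at 0.273% to 0.279% in all 12 libraries. The median coefficient of variation over the 12 libraries was 7.53% for the members and 13.1% for the tested genes, which include genes of lower level.

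**Figure D1:**
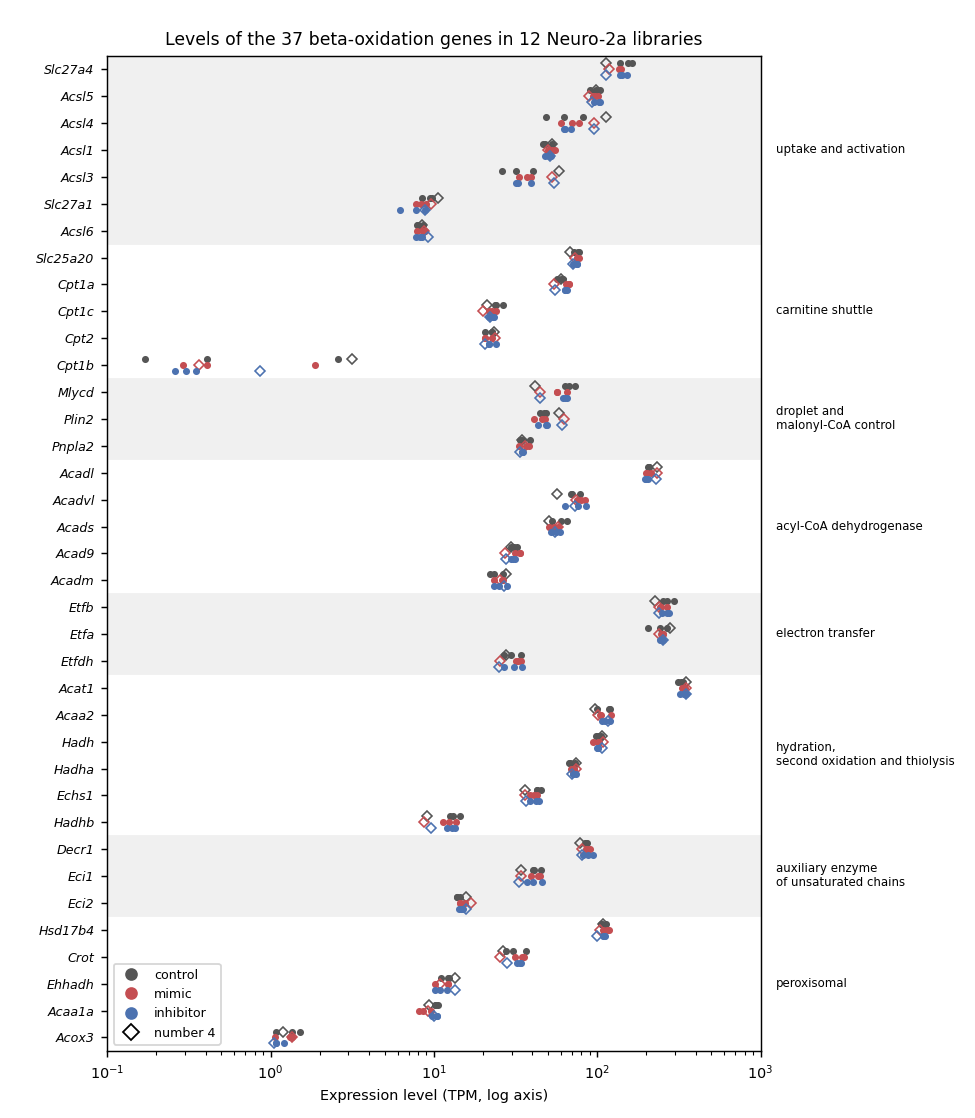
Level of each of the 37 genes (TPM, log axis) in the 12 libraries, grouped by role, with filled circles for numbers 1 to 3 and open diamonds for number 4 of the control, mimic and inhibitor groups. Levels run from 0.920 TPM for Cpt1b to 338 TPM for Acat1, and the treatment colours overlap for every gene but Acaa1a, where the mimic values lie below the inhibitor values.

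Among the activating enzymes, Slc27a4, a fatty acid transport protein with acyl-CoA synthetase activity, had the highest TPM, at 137 ± 16.1 (mean ± SD, n = 12). Its mean count, not scaled by length, was 7045, below the 16447 of Acsl4 and the 10473 of Acsl1. The long-chain acyl-CoA synthetases followed, with Acsl5 at 97.1 TPM, Acsl4 at 74.9 TPM, Acsl1 at 50.8 TPM, Acsl3 at 39.9 TPM and Acsl6 at 8.38 TPM. The ranges of Acsl5 (89.3 to 104 TPM) and Acsl4 (48.7 to 113 TPM) overlapped, as did those of Acsl1 and Acsl3, whereas Acsl6 reached at most 9.16 TPM. Slc27a1, the relative of Slc27a4 best known from muscle and fat, measured 6.24 to 10.7 TPM.

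In the carnitine shuttle the liver-type Cpt1a was the leading transferase of the outer membrane, at 61.6 TPM. Cpt1c, the brain form that resides in the endoplasmic reticulum, measured 22.8 TPM, and the ratio of Cpt1a to Cpt1c ran from 2.34 to 3.07 over the 12 libraries. Cpt2 measured 22.1 TPM and the carnitine-acylcarnitine translocase Slc25a20 measured 74.1 TPM. The muscle form Cpt1b was listed at 0.17 to 3.17 TPM, and its counts are set beside those of an overlapping gene below. Mlycd, which breaks down malonyl-CoA, stood at 58.7 TPM. Plin2, a coat protein of lipid droplets, stood at 49.8 TPM, and Pnpla2, the droplet triglyceride lipase, at 35.3 TPM.

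Within the mitochondrial spiral the long-chain dehydrogenase Acadl had the highest TPM of the acyl-CoA dehydrogenases, at 211. Its mean count was 5794, below the 6201 of Acadvl. The very-long-chain enzyme Acadvl measured 73.9 TPM, the short-chain Acads 56.1 TPM, Acad9, which also serves complex I assembly, 30.6 TPM and the medium-chain Acadm 25.4 TPM. The 2 subunits of the electron transfer flavoprotein were close in level, with Etfb at 256 TPM and Etfa at 249 TPM, and their ratio varied from 0.694 to 1.22. Etfdh, which passes their electrons to ubiquinone, was lower at 30.0 TPM. Acat1, the acetoacetyl-CoA thiolase, was the highest member of all in TPM, at 338. Acaa2, a mitochondrial thiolase, and Hadh, the short-chain hydroxyacyl dehydrogenase, measured 110 TPM and 102 TPM, and Echs1, the short-chain hydratase, 40.5 TPM.

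For unsaturated chains the dienoyl-CoA reductase Decr1 measured 85.2 TPM, and the enoyl-CoA isomerases Eci1 and Eci2 measured 40.0 and 14.9 TPM. In peroxisomes the multifunctional enzyme Hsd17b4 led at 109 TPM. Crot, which transfers shortened chains to carnitine for export, measured 31.4 TPM, the other multifunctional enzyme Ehhadh 11.7 TPM, the thiolase Acaa1a 9.71 TPM and the branched-chain oxidase Acox3 1.22 TPM. In TPM Hsd17b4 was thus close to the mitochondrial thiolase Acaa2, with mean counts of 4980 and 2395, while Acox3 was among the lowest members.

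The miR-155 reagents moved no member past the threshold. Comparing mimic with control, inhibitor with control, and mimic with inhibitor, the edgeR quasi-likelihood test called 0 of 37 members (Benjamini-Hochberg adjusted p under 0.05), and the percent called over all genes was 0 in each. At an unadjusted p under 0.05 there were 1, 0 and 1 members, against 0.546%, 0.515% and 0.592% of all genes. These shares of genes are far below the fraction of 0.05 that such a threshold passes by chance. The fits had no term for library number, so the difference between numbers described below stayed in their spread. The absence of calls is therefore a weak test of a treatment effect. DESeq2 called 3, 1 and 6 genes in these contrasts and 0 members. On scaled CPM, counts per library size, 0 members had groups that did not overlap, against 0.684%, 0.645% and 0.861% of all genes. The contrasts share control or reagent libraries, so they are not independent of one another.

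The sizes were small as well as uncalled. The members' median log2 fold change was -0.03 in mimic against control, -0.01 in inhibitor against control and -0.02 in mimic against inhibitor, beside -0.01, -0.01 and 0.00 over all genes tested. A difference within 0.25 of 0 on the log2 scale was seen for 36, 35 and 36 of the 37 members. Over all genes tested, 90.7%, 90.6% and 90.5% lay within it. The median standard error of a member was 0.095 on the same scale, and it includes the difference between library numbers. With numbers 1 to 3 alone, 0 genes and 0 members were called in each of the 3 contrasts.

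**Figure D2:**
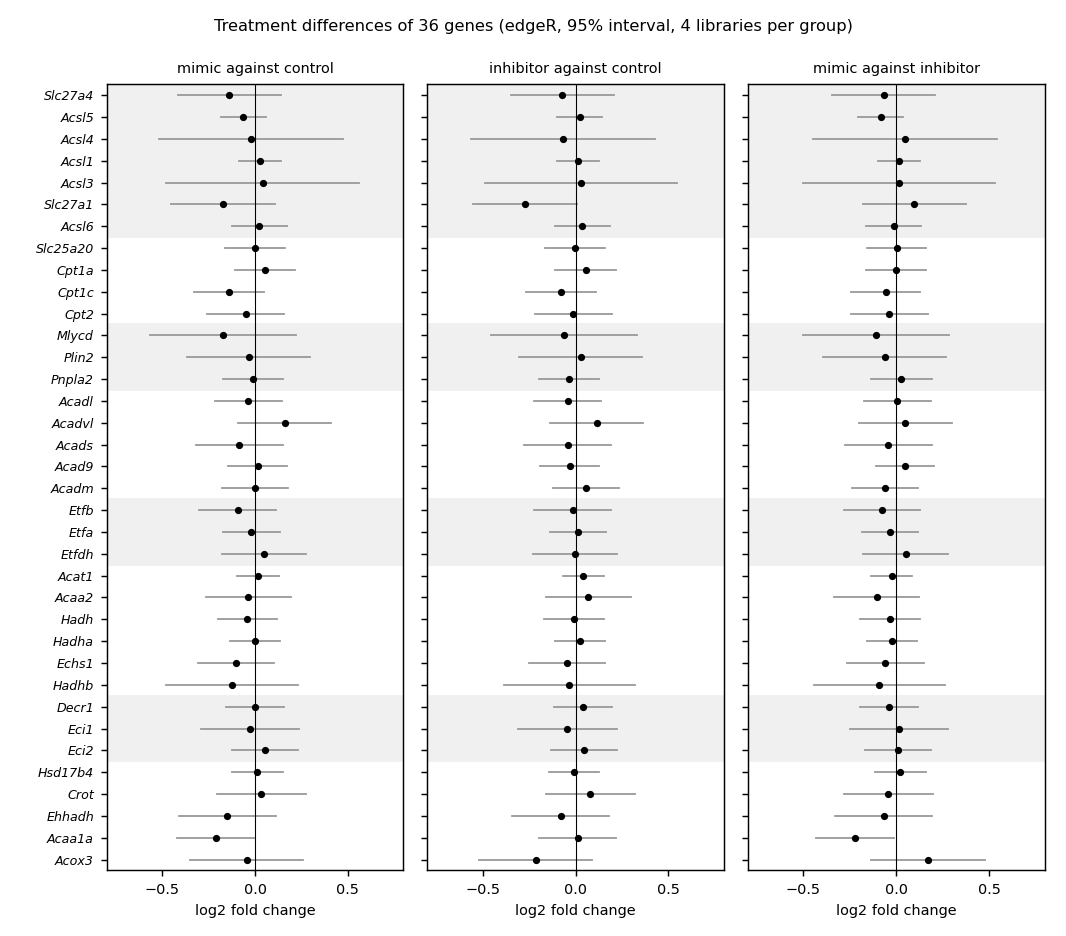
Log2 fold change of 36 genes (points) with 95% intervals (lines) in the 3 treatment contrasts, from edgeR with 4 libraries per group. Cpt1b is left off because another gene overlaps it on the same strand. The points run from -0.27 for Slc27a1 in inhibitor against control to 0.17 for Acox3 in mimic against inhibitor, and only Acaa1a has an interval that excludes 0, in mimic against control and mimic against inhibitor.

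Mlycd, the member with the 8mer site, did not separate the groups. It measured 63.4, 73.4, 67.3 and 41.5 TPM in control 1 to 4, 56.6, 57.1, 64.9 and 44.7 TPM in mimic 1 to 4, and 65.5, 62.0, 63.9 and 44.4 TPM in inhibitor 1 to 4. The number 4 library was the lowest of each group, and mimic values fell inside the range of the control values. The log2 fold change of mimic against control was -0.17 (95% interval -0.57 to 0.22, edgeR adjusted p = 1.00), and with numbers 1 to 3 alone it was -0.25 (edgeR adjusted p = 0.911). Single libraries moved this value: leaving out control 2 gave -0.04, mimic 4 gave -0.09, mimic 3 gave -0.26 and control 4 gave -0.33. Mlycd was named for its site after the values were seen.

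Acox3 and Hsd17b4, with the shorter matches, were not called either. Acox3 measured 1.51, 1.36, 1.08 and 1.19 TPM in control, 1.34, 1.07, 1.32 and 1.34 TPM in mimic, and 1.20, 1.08, 1.08 and 1.05 TPM in inhibitor libraries. Its log2 fold change was -0.22 in inhibitor against control (95% interval -0.52 to 0.09) and 0.17 in mimic against inhibitor (-0.14 to 0.48), with an edgeR adjusted p of 1.00 in both. Hsd17b4 ranged from 105 to 113 TPM in control and from 105 to 117 TPM in mimic libraries.

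Acaa1a, the peroxisomal thiolase, had the smallest unadjusted p of the members in both contrasts that involve the mimic. It measured 10.3, 10.6, 10.2 and 9.32 TPM in control, 8.10, 8.57, 9.63 and 9.20 TPM in mimic, and 10.4, 9.74, 10.5 and 10.0 TPM in inhibitor libraries. Mimic 3 exceeded control 4, so mimic and control overlapped by a single pair. Mimic and inhibitor did not overlap in TPM, but did in scaled CPM, where mimic 3 was at 18.34 and inhibitor 2 at 18.26. The log2 fold change was -0.21 against control (95% interval -0.42 to -0.00) and -0.22 against inhibitor (-0.43 to -0.01), and the edgeR adjusted p was 1.00 in both. Acaa1a shares 290 exonic bases with Myd88 on the other strand, and the strandedness of the counting is not given in the sources used here. Acsl5, Acadvl, Etfdh, Echs1 and Hadha likewise share exonic bases with measured genes on the other strand.

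None of the carnitine palmitoyltransferases was called. For Cpt1a the log2 fold change was 0.05 in mimic against control (95% interval -0.11 to 0.22), 0.05 in inhibitor against control (-0.11 to 0.22) and -0.00 in mimic against inhibitor (-0.16 to 0.16), with edgeR adjusted p = 1.00 in each. Cpt1c gave -0.14 (-0.33 to 0.05), -0.08 (-0.27 to 0.11) and -0.06 (-0.25 to 0.13) in the same order, of which the first was -0.06 and the next -0.00 without control 2. Cpt2 gave -0.05 (-0.26 to 0.16), -0.01 (-0.22 to 0.19) and -0.04 (-0.24 to 0.17). These intervals still allow a change of 0.22 for Cpt1a on the log2 scale.

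The other members that the naming rule took also stayed under the threshold. Acadvl was 0.16 in mimic against control (95% interval -0.09 to 0.41), with control 4 lowest at 56.9 TPM and inhibitor 1 highest at 84.8 TPM. Without control 4 it was 0.07, and with numbers 1 to 3 alone 0.08. Slc27a1 was -0.27 in inhibitor against control (-0.55 to 0.01), where inhibitor 2 was lowest at 6.24 TPM, and -0.17 without that library. Acsl5 was -0.08 in mimic against inhibitor (-0.21 to 0.04), and the edgeR adjusted p was 1.00 for each of the 3.

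The number 4 libraries differed from numbers 1 to 3 in many members, in both directions. In a fit with treatment as a term, 14 of 37 members were called by the edgeR quasi-likelihood test (Benjamini-Hochberg adjusted p under 0.05), 5 higher and 9 lower. That is 37.8% of the members, close to the 41.5% called among all 13014 genes, of which 20.4% were higher and 21.1% lower. Member changes were smaller, with a median absolute log2 fold change of 0.14 against 0.23 over all genes, and 75.7% against 53.2% lay within 0.25 of 0. The comparison was not matched for level: the members' median was 49.8 TPM against 12.1 TPM over all genes. Their median standard error was also smaller, at 0.0706 against 0.0852. With offsets for GC content and length, 16 members were called, 9 higher and 7 lower, and 12 of them were among the 14. The share of all genes called with the offsets is not given here, so these counts have no background beside them. The members' median log2 fold change with the offsets was 0.02, against -0.00 over all genes. Without the offsets, 16 members had an unadjusted p under 0.05, against 50.1% of genes. The members' median log2 fold change without them was -0.02, against -0.00 over all genes. In bulk RNA, fewer cells of a type and less RNA per cell cannot be told apart. Number 4 contributes 1 library to each treatment, so this difference does not coincide with a treatment group.

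The rank within each treatment gave the same picture. In 7 members number 4 was the highest library of all 3 treatments and in 9 the lowest, together 43.2% of the members against 43.8% of all genes. On scaled CPM the sets did not overlap for 14 members, 6 higher and 8 lower, against 36.9% of all genes. An interaction of number 4 with treatment was called for 0 members, against 0.0538% of all genes. The neuroblastoma and neuronal marker sum moved with the number as well: it was 4575 to 4799 TPM in number 4 and 4883 to 5294 TPM in the others, and 7 of 9 tested markers were called. Phox2a and Gata3 were among the markers that fell, and Tubb3 rose. Their part in the members' differences was not tested.

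The count of members called changed when a number 4 library was left out. Without control 4, mimic 4 or inhibitor 4 it was 9, 9 and 7, with fewer libraries in each fit. The share of all genes called in each of these fits is not given here, so these counts have no background beside them. The count over all genes moved as well. It ran from 3690 to 6589 when any 1 library was left out, against 5399 with all libraries. Acsl3, Acsl4, Plin2, Acadl, Mlycd, Hadhb and Crot were called in all 20 alternative settings.

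**Figure D3:**
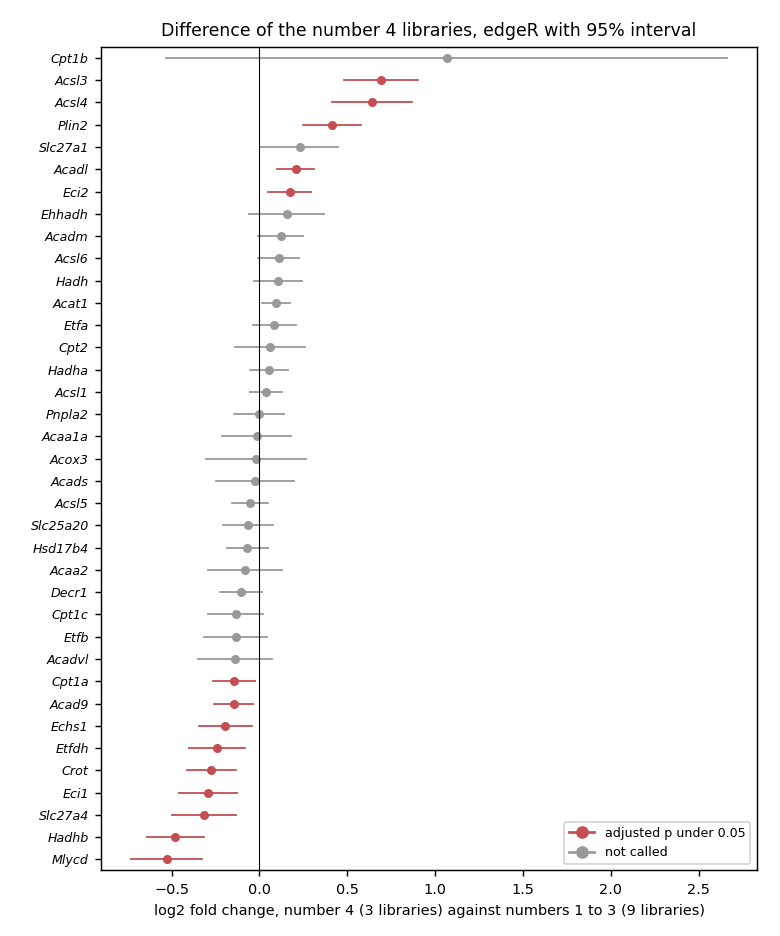
Log2 fold change (points) and 95% interval (lines) of the 37 genes in the number 4 libraries (n = 3) against numbers 1 to 3 (n = 9), sorted by size. Red marks the 14 genes called by edgeR, from Acsl3 at 0.69 to Mlycd at -0.53, and Cpt1b has the widest interval.

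The called activating enzymes split by isoform. Acsl3, the synthetase of the endoplasmic reticulum and nascent lipid droplets, measured 58.1, 52.9 and 54.6 TPM in control 4, mimic 4 and inhibitor 4. Its values in the other libraries ran from 26.2 TPM in control 2 to 40.7 TPM in control 1, so the sets did not overlap. Acsl3 rose by 0.69 on the log2 scale (95% interval 0.48 to 0.90, edgeR adjusted p = 0.000173), or 1.62-fold. It shares 244 exonic bases on the same strand with Utp14b, a ribosome biogenesis gene that itself rose by 0.56 (edgeR adjusted p = 0.0171), so part of the reads could belong to either gene.

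Acsl4, the synthetase with a preference for arachidonate, moved like Acsl3. It measured 113, 95.8 and 94.96 TPM in control 4, mimic 4 and inhibitor 4, and 48.7 to 81.6 TPM in the 9 others, with control 2 lowest again. Acsl4 rose by 0.64 (95% interval 0.41 to 0.87, edgeR adjusted p = 0.000496), or 1.56-fold. The TPM ratio of Acsl4 to Acsl5 was 1.02 to 1.15 in number 4 and 0.541 to 0.789 in the others. Their order in TPM thus changed with the number, but it depends on the lengths used. In scaled CPM, which takes no length into account, Acsl4 (170 to 369) was above Acsl5 (95.5 to 108) in every library. Acsl1, Acsl5 and Acsl6 were not called.

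Slc27a4 went the other way. It measured 113, 117 and 112 TPM in control 4, mimic 4 and inhibitor 4, and 136 to 164 TPM in the 9 others, without overlap. Slc27a4 fell by 0.32 on the log2 scale (95% interval -0.50 to -0.13, edgeR adjusted p = 0.0123). The call was lost without control 4, at -0.25, and without inhibitor 4, at -0.30.

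The droplet coat and the malonyl-CoA enzyme moved in opposite directions. Plin2 measured 58.0, 62.6 and 61.2 TPM in control 4, mimic 4 and inhibitor 4, and 40.9 to 49.0 TPM in the 9 others. Plin2 rose by 0.41 (95% interval 0.25 to 0.58, edgeR adjusted p = 0.00105), or 1.33-fold. Mlycd, whose values are given above, lay at 41.5 to 44.7 TPM in number 4 and at 56.6 to 73.4 TPM in the others. Mlycd decreased by 30.6% (log2 fold change -0.53, 95% interval -0.73 to -0.33, edgeR adjusted p = 0.00119). The droplet lipase Pnpla2 spanned 33.9 to 36.1 TPM in number 4, inside the range of the others.

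**Figure D4:**
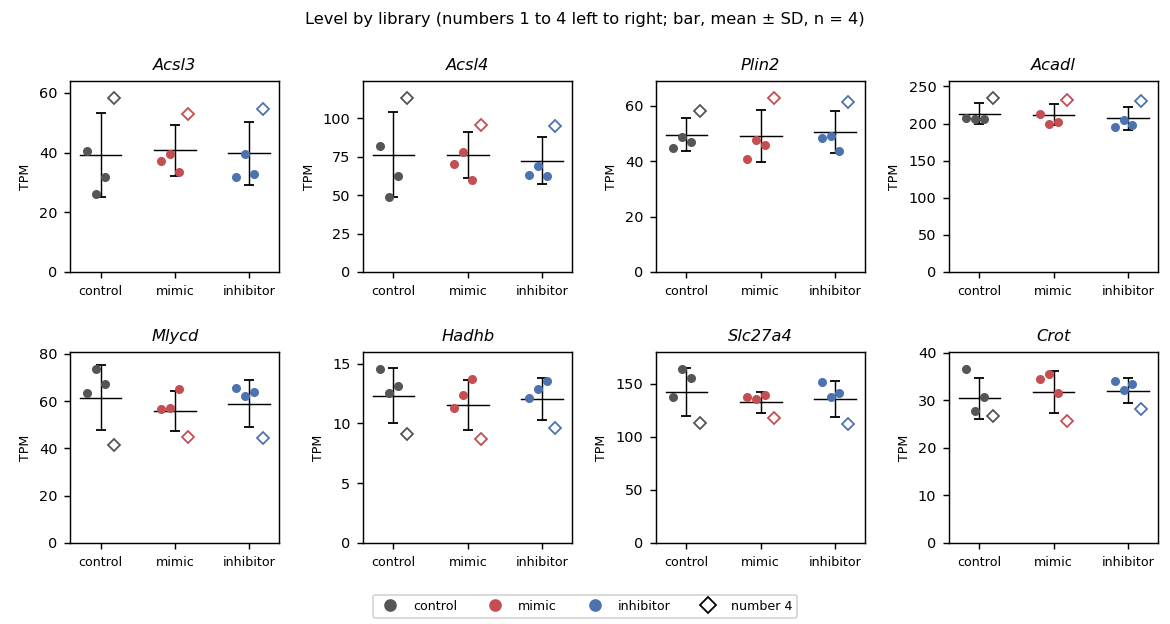
Level (TPM) of 8 called genes by library, with filled circles for numbers 1 to 3 and open diamonds for number 4, left to right within each treatment; bars are mean ± SD (n = 4). Number 4 is highest in each treatment for Acsl3, Acsl4, Plin2 and Acadl and lowest for Mlycd, Hadhb, Slc27a4 and Crot.

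In the carnitine shuttle the difference was small. Cpt1a measured 59.7, 54.1 and 55.4 TPM in number 4 and 56.8 to 67.4 TPM in the others, and control 4 lay inside that range. Its log2 fold change was -0.14 (95% interval -0.26 to -0.03, edgeR adjusted p = 0.0495), and the call held in 8 of 20 alternative settings, at -0.09 with offsets for GC content and length. Cpt1c gave -0.14 (-0.29 to 0.02, edgeR adjusted p = 0.152) and Cpt2 0.06 (-0.14 to 0.26, edgeR adjusted p = 0.621).

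Among the dehydrogenases Acadl, called as higher, measured 234, 232 and 230 TPM in control 4, mimic 4 and inhibitor 4. The 9 other libraries lay at 196 to 214 TPM, so the sets did not overlap. Acad9, called as lower, measured 27.1 to 29.6 TPM in number 4 and 29.5 to 33.9 TPM in the others, a call that held in 13 of 20 settings. Acadvl, Acadm and Acads were not called. Etfdh, called as lower, measured 25.1 to 27.7 TPM in number 4 and 26.8 to 34.4 TPM in the others, with its call held in 16 of 20 settings, and the flavoprotein subunits Etfa and Etfb were not called.

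The trifunctional protein, a complex of the Hadha and Hadhb subunits that handles long chains, showed unequal change of its subunit RNAs. Hadhb measured 9.08, 8.71 and 9.59 TPM in control 4, mimic 4 and inhibitor 4, and 11.3 to 14.5 TPM in the 9 others, without overlap. Hadhb fell by 0.48 on the log2 scale (95% interval -0.64 to -0.32, edgeR adjusted p = 0.000556). Hadha measured 73.9, 74.0 and 69.7 TPM in number 4 and 67.5 to 74.4 TPM in the others, with a log2 fold change whose interval included 0. The Hadha to Hadhb ratio was therefore 7.27 to 8.50 in number 4 and 4.68 to 6.36 in numbers 1 to 3. Over all libraries Hadha had 6.35 times the counts of Hadhb, and the lengths used for TPM were nearly equal, with Hadhb at 0.934 of Hadha. Echs1, called as lower, measured 35.9 to 36.7 TPM in number 4 and 38.7 to 45.2 TPM in the others, and its call held in 12 of 20 settings.

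Hadha and Hadhb are transcribed away from each other, with 85 bases between their annotated starts in GENCODE M21. The RefSeq start window of Hadhb, chr5:30155003-30155302 on the plus strand of GRCm38.p6, runs from 250 bases before to 50 bases after the start and shares 228 bases with that of Hadha. It is shown because these 2 genes share a start region and differed in the number 4 contrast. Capitals mark the 4 matches of this window to the GC box GGGCGG, searched on both strands, while the Hadha window held 1, so not all 4 lie in the shared bases.
Hadhb start window: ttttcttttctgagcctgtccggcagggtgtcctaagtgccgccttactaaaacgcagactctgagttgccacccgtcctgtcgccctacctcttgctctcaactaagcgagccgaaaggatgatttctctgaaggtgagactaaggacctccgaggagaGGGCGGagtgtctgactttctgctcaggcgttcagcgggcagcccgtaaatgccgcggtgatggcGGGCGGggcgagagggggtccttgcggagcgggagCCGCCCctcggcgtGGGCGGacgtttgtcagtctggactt

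Start windows were found for 31 of the 37 members. The GC box GGGCGG was in 26 of them, 83.87%, against 63.41% of 12098 measured genes with a window, and the TATA letters TATAAA were in 0 of the members and 9.76% of all. The ERR element TCAAGGTCA was in 1 member, Acsl6, against 0.33% of all genes, and the PPAR direct repeat of type DR1 was in 0 members and 0.07% of all. All motifs were searched on both strands, and these matches only describe letters in the windows.

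**Figure D5:**
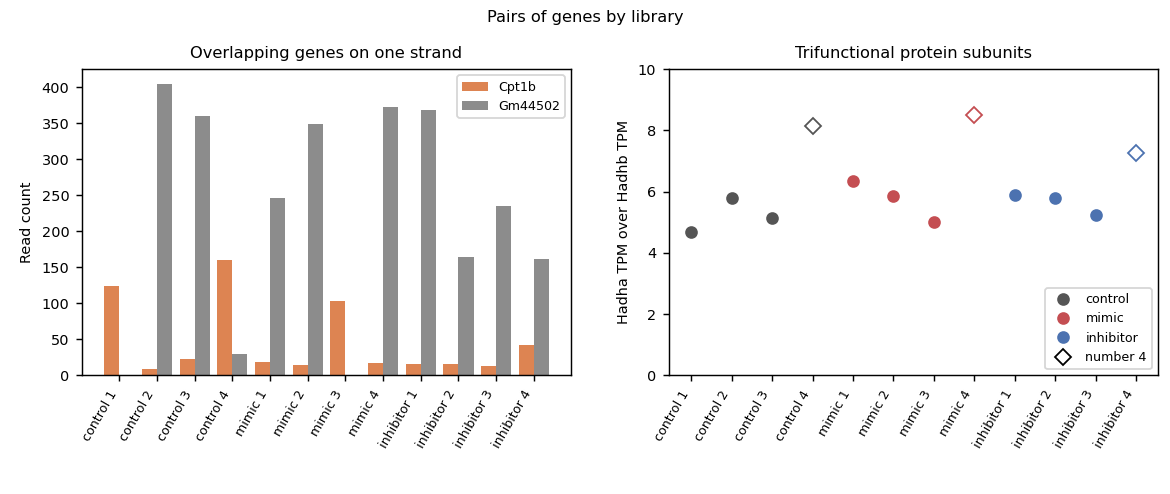
Left, read counts of Cpt1b and of Gm44502, which overlaps it on the same strand, in each of the 12 libraries. Right, the ratio of Hadha TPM to Hadhb TPM by library, 7.27 to 8.50 in number 4 (open diamonds) and 4.68 to 6.36 in the others (filled circles).

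Among the auxiliary enzymes, Eci1 measured 34.4, 34.2 and 33.0 TPM in control 4, mimic 4 and inhibitor 4, and 37.2 to 46.0 TPM in the 9 others, without overlap. Eci1 fell by 0.29 (95% interval -0.46 to -0.13, edgeR adjusted p = 0.00983), a call lost without control 4, at -0.28, and without inhibitor 4, at -0.29. With offsets for GC content and length Eci1 was at -0.18. Its relative Eci2, called as higher, measured 15.7 to 16.9 TPM in number 4 and 13.9 to 15.5 TPM in the others, a call that held in 13 of 20 settings.

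Of the peroxisomal members only Crot was called in the number 4 contrast. It measured 26.6, 25.6 and 28.1 TPM in control 4, mimic 4 and inhibitor 4, against 27.7 to 36.5 TPM in the others, where control 2 was the lowest. In TPM inhibitor 4 therefore lay above control 2, while within each treatment number 4 was lowest. In scaled CPM the sets did not overlap, with 28.2 to 30.7 in number 4 and 31.7 to 38.1 in the others. Crot fell by 0.27 (95% interval -0.41 to -0.14, edgeR adjusted p = 0.00537).

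By role, the called members of the number 4 contrast were spread over the pathway. Uptake and activation had 2 higher and 1 lower of 7, the carnitine shuttle 0 and 1 of 5, and droplet and malonyl-CoA control 1 and 1 of 3. The dehydrogenases had 1 and 1 of 5, electron transfer 0 and 1 of 3, and hydration to thiolysis 0 and 2 of 6. The auxiliary enzymes had 1 and 1 of 3 and the peroxisomal genes 0 and 1 of 5. Summed TPM of the shuttle was 170 to 176 in number 4 and 179 to 190 in the others, without overlap. That of the auxiliary enzymes was 128 to 132 and 133 to 155, also without overlap. The sums of all other roles overlapped between number 4 and the others. Among single genes, 36.9% of all tested did not overlap on scaled CPM. The shuttle sum includes Cpt1b, which cannot be read as a level of its own.

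Related genes outside the 37 were read in 3 lists, with 0 called in the 3 treatment contrasts and the number 3 contrast. In number 4, other genes of fatty acid uptake, thioester handling, peroxisomal and branched-chain oxidation had 4 higher and 11 lower of 46 tested, 32.6% against the 41.5% of all genes, with a median log2 fold change of -0.04. Their greatest changes were in Acsf2, a medium-chain acyl-CoA synthetase (log2 fold change 0.93, edgeR adjusted p = 0.0398), and Acss2, which activates acetate (0.89, edgeR adjusted p = 2.25e-06). Acss2 measured 53.0 ± 1.82 TPM in number 4 (SD, n = 3) and 28.9 ± 0.75 TPM in the others (n = 9), whereas Acsf2 reached at most 2.00 TPM. In Acsf2 mimic 4 (2.00 TPM) and inhibitor 4 (1.87 TPM) were high, while control 4 (0.893 TPM) lay inside the 0.511 to 1.06 TPM of the others.

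Lipid droplet storage and lipolysis genes had 3 higher and 3 lower of 15 tested in number 4, 40% against the 41.5% of all genes, with a median log2 fold change of 0.06. Pnpla3, a droplet lipase, rose by 0.96 on the log2 scale, from 24.6 ± 1.92 TPM to 47.3 ± 4.72 TPM. Mgll, the monoglyceride lipase, fell by 0.85, from 1.53 ± 0.21 TPM to 0.83 ± 0.056 TPM. Regulators of beta-oxidation and ketone body genes had 3 higher and 4 lower of 17 tested, 41.2% against the same 41.5%, with a median of 0.10. The fatty acid receptor Ppard rose by 0.78, from 13.8 ± 0.93 TPM to 23.5 ± 1.13 TPM, and Rxrb, a partner of PPAR receptors, fell by 0.63, from 58.3 ± 3.87 TPM to 37.1 ± 1.84 TPM. The edgeR adjusted p of these 4 genes ran from 1.06e-05 for Pnpla3 to 0.000213 for Mgll. Of the regulators in the series title, Pparg was called as higher in number 4 and Esrra, the gene of ERRα, as lower. Ppargc1a, the gene of PGC-1α, was at 0 TPM in every library but control 2, where it was at 0.029 TPM.

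The number 3 libraries were compared with numbers 1 and 2 in the same fit, and 0 members were called by edgeR, with percent called 0 over all genes. At an unadjusted p under 0.05 there were 0 members and 2.17% of genes. Sets that did not overlap were found for 0 members and 1.6% of genes, and DESeq2 called 89 genes and 0 members. The smallest p values belonged to Acadm, at a log2 fold change of -0.12 (95% interval -0.26 to 0.01), Hadhb at 0.11 (-0.06 to 0.28) and Ehhadh at -0.14 (-0.36 to 0.09), with an edgeR adjusted p of 1.00 for each. Cpt1a, Cpt1c and Cpt2 gave -0.05, -0.05 and -0.01. Control 2 decided the count of genes: without it 569 genes and 1 member were called. That member was Acsl4, named after its values were seen, at -0.24 (edgeR adjusted p = 0.0160).

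Cpt1b cannot be read as a level of its own. Its annotated exons share 2744 bases with Gm44502 on the same strand in GENCODE M21. Cpt1b had 124, 9, 23 and 160 counts in control 1 to 4, 19, 15, 104 and 17 in mimic, and 16, 16, 13 and 42 in inhibitor libraries. Gm44502 had 0, 405, 360 and 30 counts in control, 247, 349, 0 and 373 in mimic, and 368, 164, 235 and 161 in inhibitor libraries. The 3 libraries with the most Cpt1b counts, control 4, control 1 and mimic 3, were those with the fewest for Gm44502. A count of 0 in a library allows up to 3 counts, by counting error only.

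The log2 fold change of Cpt1b was -1.80 in inhibitor against control (95% interval -3.66 to 0.06), -1.09 in mimic against control (-2.90 to 0.72) and 1.06 in number 4 against numbers 1 to 3 (-0.53 to 2.66). The edgeR adjusted p was 1.00 for both treatment contrasts and 0.268 for the number contrast. The summed CPM of both genes varied 4.43-fold, from 1.41 in mimic 3 to 6.25 in mimic 4, so the sum was not constant either. Etfb overlaps Gm45233 by 617 bases on the same strand, but that gene had 0 to 34 counts beside 9198 to 12802 for Etfb.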

How the data were processed

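For 12 libraries, the authors deposited integer read counts for each gene and, in another table, TPM values. GRCm39 and the tools edgeR, StringTie, featureCounts, STAR and fastp are named in the submitters' processing notes, with versions, roles, annotation and strandedness not given in the sources used here. In the deposited values, TPM equals the count over 1 fixed length per gene (coefficient of variation at most 0.00188% over 7819 genes above 1000 counts). Library totals of 60695388 to 74200532 counts set the precision.

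The tests on counts used edgeR 4.0.16 under R 4.3.3 (TMM scaling, filterByExpr, robust quasi-likelihood fits, Benjamini-Hochberg over 13014 genes). Treatment contrasts used group as the only term. Number contrasts used group and number, and log2 fold changes come from these fits. Alternatives used limma 3.58.1 on log2(TPM + 1) and log2(TPM + 0.1), DESeq2 1.42.0, other scalings, no filter, GC and length offsets (chosen after seeing the data) and leaving out libraries. The code was tested on simulated data.

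Members and lists were chosen with earlier results of these data known. Fold changes are given for the 3 members of smallest p per treatment contrast, the 8 called members of greatest change per number contrast (the 3 of smallest p where fewer were called), Cpt1a, Cpt1b, Cpt1c, Cpt2, and the 2 greatest called changes per list. Libraries of 1 number were not paired: correlations of their deviations from group means ran from -0.07 to 0.53, and 7 of 12 exceeded 0.1. Within groups no 2 libraries were copies. Start windows and the miRNA came from RefSeq tables (GRCm38.p6) and 3' UTRs from GENCODE M21 (GRCm38), matched by symbol or gene identifier. Some marker genes are not reported here.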

Additional observations from a re-analysis of the deposited data

Results flagged for a closer look

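In 6 of 111 gene-by-treatment sets of 4 libraries, 1 library lay far from the other 3 by Dixon's criterion; chance flags about 1 in 20 groups, and 4 of the 6 were number 4 libraries. Acadl was 234 TPM in control 4, against 206 to 208 TPM in the other controls. Slc27a4 was 117 TPM in mimic 4, against 136 to 139 TPM. Mlycd was 44.4 TPM in inhibitor 4, against 62.0 to 65.5 TPM. Cpt1b was 1.86 TPM in mimic 3, against 0.292 to 0.405 TPM, and 0.865 TPM in inhibitor 4, against 0.260 to 0.352 TPM. Acox3 was 1.07 TPM in mimic 2, against 1.32 to 1.34 TPM.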

How the results depend on the processing

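The count of members called stayed at 0 in the 3 treatment contrasts under each alternative run. DESeq2 called 3 genes in mimic against control, 1 in inhibitor against control, 6 in mimic against inhibitor and 89 in number 3, against 0 by edgeR. With 1 library left out at a time, genes called ran from 0 to 1, 0 to 0, 0 to 1, 0 to 569 (number 3) and 3690 to 6589 (number 4), and members called from 0 to 1 in number 3 and from 7 to 17 in number 4. Other scalings, no filter, limma, DESeq2 and offsets for GC content and length gave 13 to 16 members in number 4. Over all genes, the other scalings called 5402 and 5394 of 13014, and limma called 5323 and 5279 of 13014. Of 15767 genes, 5237 were called with no filter and 5938 by DESeq2. With the offsets 9 were higher and 7 lower, against 5 and 9 without, and the share of all genes called with the offsets is not given here. The log2 fold change of number 4 had a Spearman correlation across 12998 genes, which are not independent replicates, of -0.139 with GC content and 0.178 with length.

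Values near 0 changed sign. Cpt1a in mimic against inhibitor was 0.0011 with no filter, 0.0275 and 0.0278 by limma with pseudocounts of 1 and 0.1, and 0.0046 with numbers 1 to 3 alone. Cpt2 in inhibitor against control was 0.0304 with numbers 1 to 3 alone. With 1 library left out, Cpt1a in mimic against inhibitor ran from -0.0464 to 0.0544, and Cpt2 from -0.0709 to 0.0197 in inhibitor against control, -0.0927 to 0.0213 in mimic against inhibitor, -0.0721 to 0.038 in number 3 and -0.0275 to 0.1397 in number 4. Cpt1c in number 3 ran from -0.0905 to 0.0019. The cause was not tested.

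With the replicate block, the treatment contrasts gave 0 genes and 0 members called, and 191, 161 and 139 genes at an unadjusted p under 0.05 against 71, 67 and 77 without it. Correlations between libraries of 1 number were 0.44 to 0.53 for number 4 but -0.07 to 0.22 for numbers 1 to 3. The block was therefore not taken as a pairing, and the main treatment fits keep the number 4 difference in their spread.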
